A study of Mus musculus with 34 samples.

Results

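The 200 kb windows nearest the centromere were examined on 17 mouse chromosomes for contact with the immunoglobulin heavy chain locus Igh. Windows that start from 3 Mb to under 13 Mb in the mouse genome build mm9 and hold at least 1 HindIII fragment were taken from every autosome except 12, which carries Igh, and 15, which carries Myc. The rule uses position and fragment number only, not reads. It gave 848 near windows of 12836 in all (6.61%), with 56508 HindIII fragments of 823057. There were 49 windows on chromosomes 13 and 19 and 50 on each of the others. They were compared with 9214 interior windows of the same chromosomes, which start at 13 Mb or beyond and lie outside the last 10 Mb. The last 10 Mb of the same chromosomes, 849 windows, are given for reference.

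The data are circular chromosome conformation capture (4C) libraries, in which DNA ends cut by HindIII are ligated in fixed nuclei and the partners of a bait, here in Igh, are sequenced. TEPC1165 and PCT4961 are mouse plasmacytomas, tumors of antibody-secreting cells, and each has 2 libraries. Both are from Balb/c mice. The labels give PCT4961 the genotype AID-/- BclXL and give no genotype for TEPC1165, so tumor and genotype cannot be told apart. No treatment, time or age is given for either tumor, and each is a single tumor line. The series design text says that many of its samples have biological replicates, but not which, so the spread between the 2 libraries of a tumor may be technical.

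Mouse chromosomes have the centromere at 1 end. The satellite repeats that form it are missing from the assembly, and the first assembled bases follow them. In interphase nuclei the centromeres of several chromosomes gather in chromocenters, dense bodies of heterochromatin that often lie at the nuclear or nucleolar edge. Contacts of a bait with other chromosomes are thin and scattered in 4C, since each cell contributes at most a few ligation partners. Igh lies close to the telomeric end of chromosome 12, far from its centromere. Its bait window here was 12:114400001-114600000, the highest window of chromosome 12 in every library.

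The libraries held 1668589 to 2178689 reads. Outside the 11 windows around the bait, which are called the bait region, were 91.8% and 88.4% of reads in TEPC1165 replicates 1 and 2. In PCT4961 replicates 1 and 2 these shares were 62.8% and 62.7%. A fragment is called detected when it has at least 1 read, and each library detected 9191 to 11226 fragments. Since PCR copies are not separated from independent ligations, detected fragments are given before reads. Intervals are 95% Wilson intervals and cover counting error only.

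Libraries with the same replicate number shared many of their near windows across tumors. Of the near windows with reads in TEPC1165 replicate 1, 199 also had reads in PCT4961 replicate 1, which is 76.0% of the former library's windows and 69.8% of the latter's. For replicate 2 of both tumors the overlap was 184 windows, 78.0% of those in TEPC1165 and 68.7% of those in PCT4961. The libraries of the same tumor overlapped less. TEPC1165 replicates 1 and 2 shared 104 near windows (39.7% and 44.1%), and PCT4961 replicates 1 and 2 shared 129 (45.3% and 48.1%). Across the 848 windows, Pearson's r of log2(reads + 1) was 0.62 and 0.61 for the same-numbered pairs, against 0.16 and 0.26 within the tumors. These correlations describe windows that share libraries and are not replicates of a condition.

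**Figure D1:**
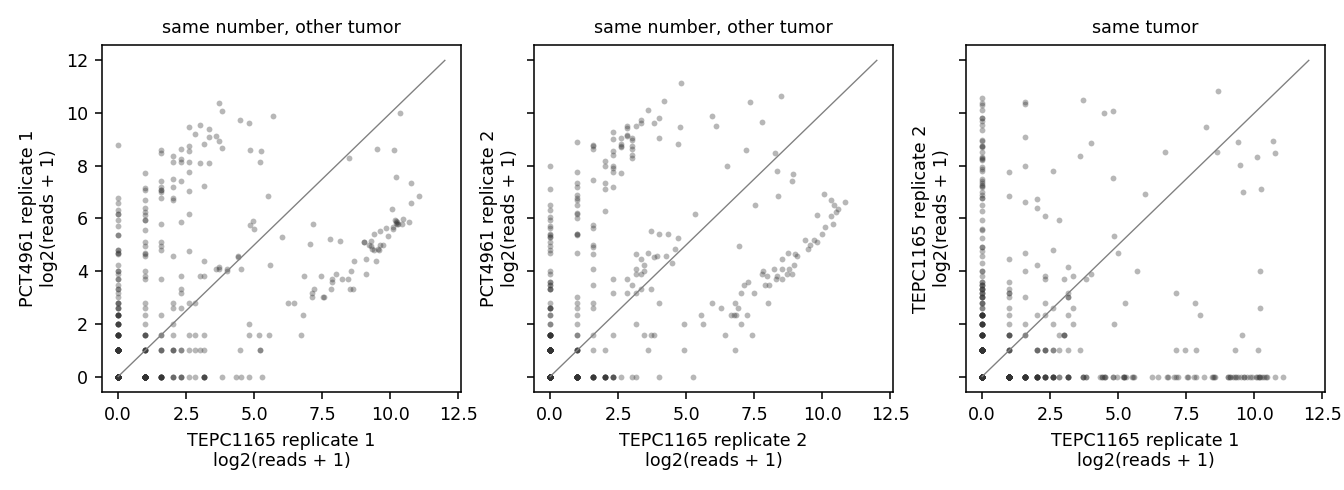
Reads per near window, as log2(reads + 1), in 3 pairs of libraries. Each point is 1 of 848 windows, and the grey line marks equal values. In both same-numbered pairs, windows high in 1 library tend to have a few percent of those reads in the other, seen as bands away from the line, whereas the pair from 1 tumor has most of its points along the axes.

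The windows with most reads showed the same overlap. TEPC1165 replicate 1 had 37 near windows with at least 500 reads, and all 37 had reads in PCT4961 replicate 1, with a median of 4.78% of the count. In TEPC1165 replicate 2, the other library of its own tumor, 12 of the 37 had reads. In PCT4961 replicate 2, 24 near windows had at least 500 reads, and all 24 had reads in TEPC1165 replicate 2, with a median of 1.20% of the count. In PCT4961 replicate 1, of the same tumor, 16 of the 24 had reads, and the median over the 24 was 1.54%. TEPC1165 replicate 2 and PCT4961 replicate 1 had 18 and 12 such windows, all with reads in the same-numbered partner. In the other library of the same tumor, 8 of the 18 and 6 of the 12 had reads. Low counts in a library can therefore accompany high counts in its same-numbered partner. Whether they are reads of the partner was not tested. The near to interior comparison and the chromosome 19 result are also given below for windows in which the partner has no reads.

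Near windows had a smaller share of their fragments detected than interior windows in each library. In TEPC1165 replicate 1, 341 near fragments were detected, or 0.603% (0.543% to 0.671%), against 0.863% (0.840% to 0.887%) in the interior. TEPC1165 replicate 2 had 311, or 0.550% (0.493% to 0.615%), against 0.700% (0.679% to 0.722%). In PCT4961 replicate 1 there were 392, or 0.694% (0.629% to 0.766%), against 0.922% (0.898% to 0.947%). PCT4961 replicate 2 had 369, or 0.653% (0.590% to 0.723%), against 0.833% (0.810% to 0.856%). The near and interior intervals did not overlap in any library, but they take each fragment as independent and are not a test across libraries.

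The near share was 0.699, 0.786, 0.752 and 0.784 times the interior share in TEPC1165 replicates 1 and 2 and PCT4961 replicates 1 and 2. The mean log2 ratio was -0.41 ± 0.079 (SD, n = 4 libraries), a fold of 0.755, and the ratio was below 1 in 4 of 4 libraries. A two-sided exact sign-flip permutation test over libraries gave p = 0.13, the smallest that 4 libraries allow, and 0.25 after Benjamini-Hochberg adjustment over the 4 relations tested. The difference was thus larger than the spread between libraries, but 4 libraries cannot reach 0.05. The libraries are also not fully independent, given the overlap of same-numbered ones. With the 2 libraries of each number merged, the share of windows with reads was 0.876-fold (replicates 1) and 0.914-fold (replicates 2) the interior share. Their mean fold was 0.894 (log2 -0.16, exact sign-flip permutation p = 0.5, the smallest 2 units allow). This is in windows and not in fragments. Without merging, the share of windows with reads had a mean fold of 0.842 (log2 -0.25), so the difference was smaller after merging. Without runs of at least 10 consecutive windows that had no reads in any library, 2 such runs with 37 windows near and 1 with 15 windows in the interior, the detection fold was 0.788. The merging and the removal of empty runs were chosen after seeing the data. The last 10 Mb had the highest shares, 1.11%, 1.10%, 1.36% and 1.34% in the same order. Against that end the near share was 0.511-fold (log2 -0.97 ± 0.071, SD, n = 4).

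Reads told the same order of near and interior windows, with a wider spread. The near windows held 44404, 31065, 25088 and 35287 reads in TEPC1165 replicates 1 and 2 and PCT4961 replicates 1 and 2. These are 2.56%, 1.98%, 2.39% and 2.58% of the reads outside the bait region. Mean reads per near window were 52.4, 36.6, 29.6 and 41.6, and per interior window 69.6, 50.5, 34.6 and 43.7. The near to interior fold was 0.752, 0.726, 0.855 and 0.951, with a mean log2 ratio of -0.29 ± 0.18 (SD, n = 4). It was below 1 in 4 of 4 libraries, with an exact sign-flip permutation p of 0.13 (0.25 adjusted over the 4 relations).

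**Figure D2:**
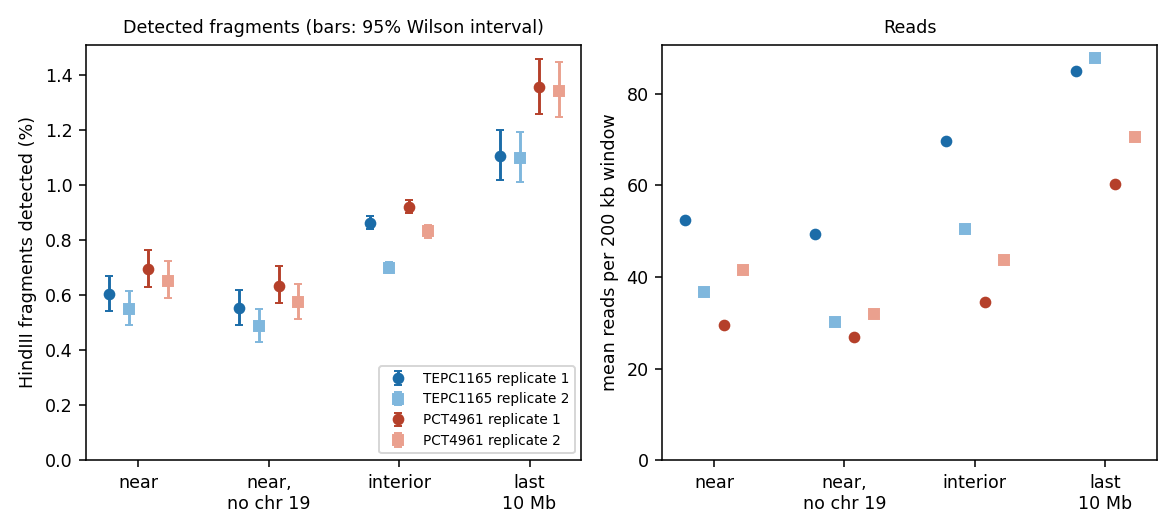
Left, percentage of HindIII fragments detected in near windows, near windows without chromosome 19, interior windows and windows of the last 10 Mb, with 95% Wilson intervals. Right, mean reads per 200 kb window in the same classes. Each symbol is 1 library. In all 4 libraries the near classes lie under the interior and the last 10 Mb lies above it in the left panel.

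Most near windows had no contact recorded in a given library. Reads were present in 262, 236, 285 and 268 near windows of TEPC1165 replicates 1 and 2 and PCT4961 replicates 1 and 2. That is 30.9%, 27.8%, 33.6% and 31.6% of them, against 39.02%, 32.5%, 39.5% and 36.3% of interior windows. A single detected fragment accounted for 199, 177, 207 and 192 of these near windows. At least 3 fragments were detected in only 14, 12, 16 and 17, and no near window had more than 6. The reads were concentrated as well: the 10 highest near windows held 33.7% to 42.7% of all near reads of a library.

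Where the same-numbered partner had no reads, near and interior windows had like shares. Such near windows had 68, 56, 97 and 94 detected fragments, or 0.181%, 0.144%, 0.249% and 0.229% of their fragments, in the order above. Interior windows of this kind had 0.203%, 0.126%, 0.225% and 0.220%. The mean log2 ratio was 0.057, so the lower near share did not hold there (exact sign-flip permutation p = 0.5). This restriction removes every window seen in both same-numbered libraries, including any that both tumors contact. These windows held 18.0% to 25.5% of the near detected fragments and 11.5% to 17.9% of the interior ones.

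The detected share varied with the number of HindIII fragments per window, and windows with fewer fragments had larger shares in both classes. Near windows averaged 66.6 fragments and interior windows 64.2. Among windows with 60 to 79 fragments the mean share over libraries was 0.549% near and 0.728% in the interior. With 40 to 59 fragments it was 0.956% and 1.15%, and with 80 or more it was 0.534% and 0.586%. The 8 near windows with fewer than 40 fragments had 2.45%, above the 2.12% of the 125 such interior windows. With the interior classes weighted as in the near windows, the mean fold was 0.795.

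The low shares extended past 13 Mb. Over all 17 chromosomes the mean share was 0.625% ± 0.062 (SD, n = 4 libraries) from 3 to 13 Mb and 0.632% ± 0.103 from 13 to 23 Mb. It was then 0.741%, 0.714% and 0.743% in the next 3 stretches of 10 Mb. Against the 13 to 23 Mb stretch alone the near fold was 0.996 (log2 -0.0051, exact sign-flip permutation p = 1), with per-library log2 ratios of -0.24, 0.14, -0.03 and 0.11. With each assembled chromosome cut into 10 equal parts, the mean share was 0.594% in the part at the centromere and 1.20% in the part at the telomere, and between them it did not rise at every step.

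The picture changed when chromosome 19, described below, was left out. On the other 16 chromosomes the share was 0.562% ± 0.061 from 3 to 13 Mb and 0.648% ± 0.107 from 13 to 23 Mb (SD, n = 4). The near share was then lower than the neighbouring stretch in 4 of 4 libraries, with log2 ratios of -0.42, -0.064, -0.20 and -0.11 and a mean fold of 0.872. Against the whole interior of the same 16 chromosomes the near fold was 0.676. Leaving out chromosome 19 and comparing with the neighbouring stretch were both chosen after seeing the data. Chromosome 19 had the highest near share, above its own interior and its own 13 to 23 Mb stretch. Leaving it out could therefore only lower these folds.

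**Figure D3:**
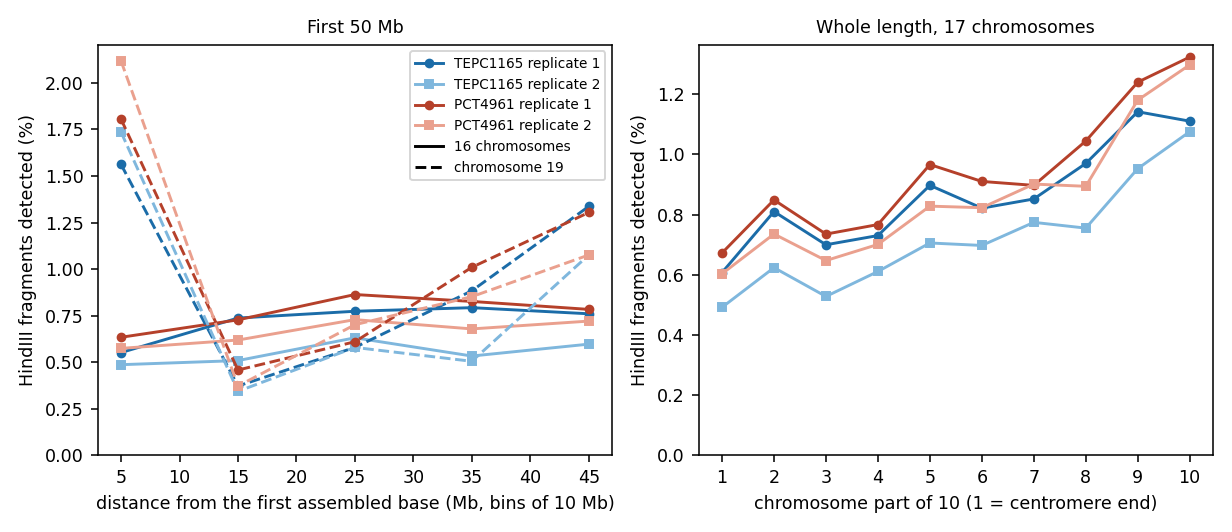
Left, percentage of HindIII fragments detected in 10 Mb stretches from the first assembled base of mm9 at 3 Mb, for 16 chromosomes (solid) and chromosome 19 (dashed). Right, the same percentage in 10 equal parts of the assembled chromosome, over 17 chromosomes. Each line is 1 library. Chromosome 19 starts above the other chromosomes and falls below them from 13 to 23 Mb.

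Within the near windows no steady gradient away from the centromere was seen. In 1 Mb steps from 3 Mb, the mean share over libraries was highest at 5 to 6 Mb, 0.785%, and lowest at 9 to 10 Mb, 0.491%. The first step, at the assembly gap, had 0.583%. Without chromosome 19 the steps ranged from 0.465% at 9 to 10 Mb to 0.676% at 10 to 11 Mb. At the boundary itself, the 17 windows just inside 13 Mb had 8, 10, 10 and 8 detected fragments of 1049, and the 17 just outside had 5, 10, 6 and 12 of 1123.

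The chromosomes differed among themselves. Of the 17, 11 had a lower detected share near the centromere than in the interior in all 4 libraries, and 1, chromosome 19, had a higher share in all 4. Chromosomes 2, 6, 8, 16 and 18 were mixed. In single libraries 13 to 15 chromosomes were lower. By reads, 7 were lower in all 4 libraries, 1 was higher, again chromosome 19, and 9 were mixed. The chromosomes named next are the 3 with the lowest and the 3 with the highest mean ratio, and the 4 libraries of a chromosome are too few for a test to pass 0.05.

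Chromosome 7 had the lowest near share relative to its interior. It had 12, 6, 9 and 11 detected fragments of 3001 in TEPC1165 replicates 1 and 2 and PCT4961 replicates 1 and 2, a share of 0.317% ± 0.0882 (SD, n = 4). Its interior had 0.802% ± 0.074, and the mean log2 ratio was -1.38. The 4 libraries were all lower and near and interior values did not overlap. A run of 11 windows, 7:6800001-9000000, had no reads in any library, and without it the mean log2 ratio of chromosome 7 was -1.03. The next window, 7:9000001-9200000, had 1 read, in TEPC1165 replicate 1. The windows from 7:9200001-9400000 to 7:10400001-10600000 again had none in any library. They were not removed, so the -1.03 still includes them. In the GRCm38 annotation the first protein-coding genes after the centromere of chromosome 7 include Nlrp12, an intracellular innate immune sensor, and Cacng7, a calcium channel subunit.

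Chromosome 10 followed, with 14, 13, 12 and 16 detected fragments of 3359, or 0.409% ± 0.0508, against 1.01% ± 0.143 in the interior (log2 -1.29). Its interior share was above the mean interior share of the 17 chromosomes, so its ratio reflects both a low near value and a high interior value. Chromosome 14 had 13, 10, 14 and 10 of 3431, or 0.342% ± 0.0601, against 0.703% ± 0.0859 (log2 -1.05). Chromosome 14 had 1 long empty stretch. The 26 consecutive windows of 14:3200001-8400000, with 1802 fragments, had no reads in any library. The other 24 near windows of this chromosome had 13, 10, 14 and 10 detected fragments of 1629, or 0.798%, 0.614%, 0.859% and 0.614%, against 0.757%, 0.607%, 0.792% and 0.658% in its interior. Here and for chromosome 7, the empty run was taken from the near windows only, which can only raise their share. Both removals were chosen after seeing the data. The first genes of chromosome 14 in GRCm38 are mostly unnamed gene models, whereas those of chromosome 10 include H60c, a ligand of the natural killer receptor NKG2D, and Iyd, which recovers iodide in the thyroid.

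Chromosome 8 had almost the same share near the centromere as in its interior. It had 20, 18, 25 and 20 detected near fragments of 3176, and its mean log2 ratio was 0.11, positive in 3 of 4 libraries. The annotation starts this chromosome with Insr, the insulin receptor. Chromosome 18 had 21, 25, 24 and 31 of 3424, with log2 ratios of -0.20, 0.37, -0.18 and 0.40. It was thus lower near the centromere in both replicates 1 and higher in both replicates 2, a split by replicate number and not by tumor. Chromosomes 16 and 17, chosen after their values were seen, likewise had their 2 lowest ratios in the replicates 1, at -1.14 and -0.63 for chromosome 16 and -1.96 and -0.98 for chromosome 17.

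**Figure D4:**
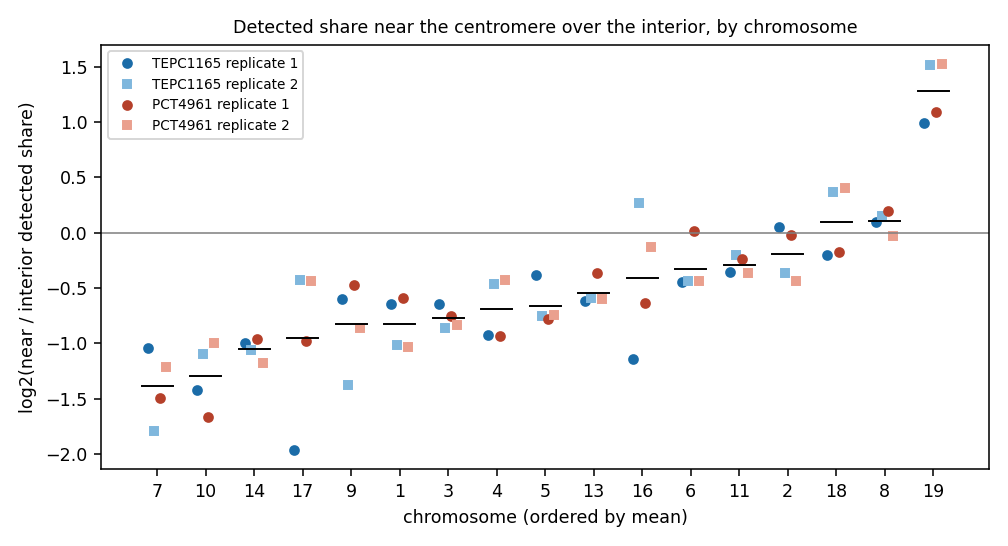
Log2 ratio of the detected share in near windows to that in interior windows for each of 17 chromosomes, ordered by the mean over 4 libraries (black bar). Each symbol is 1 library, and 0 means equal shares. Chromosome 19 lies above 0 in all 4 libraries and apart from every other chromosome.

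The start of chromosome 19 was the exception among the 17. It had 45, 50, 52 and 61 detected fragments of 2881 in TEPC1165 replicates 1 and 2 and PCT4961 replicates 1 and 2, or 1.56%, 1.74%, 1.80% and 2.12%. The highest near share of any other chromosome in the same libraries was 0.893%, 0.848%, 1.06% and 0.905%. All 4 chromosome 19 values lay above those, and above its own interior, 0.744% ± 0.102 against 1.80% ± 0.232 (SD, n = 4). The fold was 1.99, 2.85, 2.13 and 2.88, with a mean of 2.43. With 49 of 848 windows, chromosome 19 gave 13.2% to 16.5% of the near detected fragments and 11.3% to 27.8% of the near reads.

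The signal on chromosome 19 was not even along the 10 Mb. It was strongest at 5 to 6 Mb, with a mean share of 4.68% ± 0.602, and at 4 to 5 Mb, with 3.27% ± 0.445 (SD, n = 4). The first assembled megabase had 1.09% and the last, at 12 to 13 Mb, 0.719%. At 10 to 11 Mb the share was 0.383% in both replicates 1 and 3.45% in both replicates 2, the same value in both tumors. Beyond 13 Mb the chromosome fell to 0.386% ± 0.050 from 13 to 23 Mb, under the mean of the other chromosomes, and returned to 1.20% from 43 to 53 Mb.

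The first genes of chromosome 19 in GRCm38 run Ighmbp2, Mrpl21, Cpt1a, Tesmin, Gal, Ppp6r3 and Lrp5. Ighmbp2 is a helicase named for binding to immunoglobulin switch DNA, Cpt1a carries fatty acids into mitochondria, Gal encodes the neuropeptide galanin and Lrp5 is a Wnt co-receptor. Gene order only is given, since coordinates of that build do not apply to mm9. Chromosome 19 near windows had fewer fragments, 58.8 on average against 67.1 for the other near windows. Within windows of 60 to 79 fragments, the share was 1.34% ± 0.171 on chromosome 19 (15 windows) against 0.528% ± 0.0754 on the others (556 windows). With 40 to 59 fragments it was 2.51% ± 0.427 (24 windows) against 0.737% ± 0.149 (157 windows). The higher share was therefore present at matched fragment number. The restriction to windows without reads in the same-numbered partner removes every window seen in both libraries, including any that both tumors contact. The chromosome 19 windows left had few detected fragments, so they cannot show whether the higher share held there. Those chromosome 19 windows, 19 to 23 of 49, had 0, 2, 4 and 3 detected fragments of 1179, 1131, 1324 and 1207. The 0 allows a share of up to 0.254%, and the others were 0.177%, 0.302% and 0.249%, beside 0.187%, 0.143%, 0.247% and 0.229% for such windows of the other chromosomes.

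Some near windows were met repeatedly. Of the 848, 351 had no reads in any library (41.4%, against 36.1% of interior windows and 30.2% of the last 10 Mb). The empty stretches of chromosomes 7 and 14 above hold 37 of the 351. Reads in all 4 libraries were found in 72, or 8.49%, against 12.7% of interior windows and 19.9% of the last 10 Mb. Since same-numbered libraries overlap, presence under both replicate numbers, with either tumor enough for each number, was also counted. It asks less than reads in all 4 libraries, and it held for 171 near windows, or 20.2%, against 24.3% in the interior and 32.7% in the last 10 Mb. Chromosome 19 held 17 of the 72 windows seen in all 4 libraries, which is 34.7% of its 49, and the next chromosomes, 2 and 18, held 7 each. Without chromosome 19 the shares were 6.88% in all 4 libraries and 18.9% under both numbers.

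The windows detected most broadly had several fragments in each library. On chromosome 19, 19:8800001-9000000 had 3, 3, 4 and 6 of its 52 fragments detected and 19:4000001-4200000 had 3, 4, 3 and 5 of 48, in TEPC1165 replicates 1 and 2 and PCT4961 replicates 1 and 2. The reads were less even: 13, 12, 408 and 45 in the former and 28, 39, 389 and 70 in the latter. Both windows were highest by reads in PCT4961 replicate 1 but by fragments in PCT4961 replicate 2. At the assembly gap of chromosome 11, 11:3000001-3200000 had 4, 2, 5 and 3 of 62 fragments, with 50, 15, 938 and 6 reads. The window 16:4600001-4800000 had 2, 3, 2 and 4 of 59 fragments. In all, 8 near windows had at least 2 detected fragments in every library, and 4 of them were on chromosome 19. The fifth named by rule, 4:12200001-12400000, with 3, 2, 2 and 2 of 76, was tied with 19:4200001-4400000 and 19:5600001-5800000 and came first by position only. The eighth was 16:11200001-11400000, with 2 in each library.

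Windows with the most reads were mostly not the broadly detected ones. In TEPC1165 replicate 1 the top window was 2:10600001-10800000, with 2118, 0, 113 and 0 reads across the libraries in the same order, from 2 fragments in each replicate 1. It had no reads in either replicate 2. In TEPC1165 replicate 2 the top was 17:6800001-7000000, with 405, 1825, 20 and 98 reads, followed by 13:9600001-9800000, with 0, 1536, 0 and 82 reads from 1 fragment. The latter was absent from both replicates 1.

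PCT4961 replicate 1 had its highest near counts on chromosome 11. There, 11:11600001-11800000 had 12, 0, 1342 and 0 reads and 11:10200001-10400000 had 13, 0, 1066 and 0, again with no reads in either replicate 2. The next window there, 4:3400001-3600000, had 1307, 0, 1025 and 0 reads, high in both replicates 1 and absent from both replicates 2. The chromosome 4 start includes the Src-family kinase gene Lyn, which acts in B cell receptor signalling, among its first GRCm38 genes, though the window was not assigned to a gene here.

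In PCT4961 replicate 2 the 3 highest near windows were all on chromosome 19. The window 19:10000001-10200000 had 5, 27, 214 and 2262 reads, from 1, 3, 1 and 4 of 67 fragments. The next, 19:5000001-5200000, had 1727, 359, 96 and 1593 reads, from 1, 3, 2 and 3 of 54, and was also among the 3 highest of TEPC1165 replicate 1. The third, 19:9000001-9200000, had 8, 17, 452 and 1408 reads, from 1, 2, 1 and 2 of 51. These 3 windows had reads in every library. The remaining windows among the 3 highest of a library, 8:5800001-6000000 with 1717, 0, 163 and 89 reads and 19:7600001-7800000 with 12, 1460, 16 and 75, each had at least 500 reads in a single library.

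The tumors were then compared. The near detected share was 0.577% ± 0.0375 in TEPC1165 and 0.673% ± 0.0288 in PCT4961 (SD, n = 2 libraries each), and both PCT4961 libraries lay above both TEPC1165 libraries. The interior share was also higher in PCT4961, 0.877% ± 0.063 against 0.781% ± 0.115, with overlap. The near to interior log2 ratio differed by 0.051 between the tumors, with overlap (two-sided exact permutation p = 1). By reads the near to interior log2 ratio was -0.44 ± 0.036 in TEPC1165 and -0.15 ± 0.109 in PCT4961, without overlap (difference 0.29, exact permutation p = 0.33, 0.444 adjusted over the 4 relations). With 2 libraries against 2, 0.33 is the smallest p possible, so no tumor difference could pass 0.05 by this test.

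edgeR's quasi-likelihood test across all windows called no near window between the tumors, and at this spread it could not show that windows are alike. Of the 848, 158 had at least 10 reads in at least 2 libraries and were tested, and 0 had an adjusted p under 0.05, against 0.522% of the 3449 windows tested outside the bait region. That background includes chromosomes 12 and 15. Of the 2326 interior windows tested 0 were called, and with chromosomes 12 and 15 left out of the fit 0 of 2880. The smallest adjusted p of a near window was 0.795. At an unadjusted p under 0.05 there were 2 near windows, 1.27% of those tested, against 1.68% of all windows and 0.387% of interior windows (9 of 2326). DESeq2 also called 0 near windows, and 0 of all 3449. It had 13 near windows at an unadjusted p under 0.05. The share of all windows at that limit was not computed for DESeq2, so the 13 cannot be read as an excess. The common biological coefficient of variation of the edgeR fit was 2.11, a spread between libraries of one tumor larger than the mean. On simulated counts with this spread the test called none of the windows given a large change.

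The 2 near windows with an unadjusted p under 0.05 were both on chromosome 19 and both higher in PCT4961. They were 19:10000001-10200000 (edgeR log2 fold change 6.89, SE 2.66, unadjusted p = 0.0175, adjusted p = 0.795) and 19:9000001-9200000 (log2 fold change 6.72, SE 3.05, unadjusted p = 0.0391, adjusted p = 0.795). Their reads, given above, did not overlap between the tumors, while their detected fragments did, at 1 and 3 against 1 and 4 and at 1 and 2 against 1 and 2. In the third, 18:4800001-5000000, both TEPC1165 libraries had 0 reads and the PCT4961 libraries had 15 and 38 (unadjusted p = 0.0743). That window passed the read filter through PCT4961 alone. Of windows lower in PCT4961, those with the smallest unadjusted p were 17:6800001-7000000 (log2 fold change -3.45), 2:10600001-10800000 (-3.82) and 19:7800001-8000000 (-4.59, with 554, 0, 14 and 0 reads).

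Among the 158 tested windows the fitted median log2 fold change of PCT4961 over TEPC1165 was -0.54, with 75 higher and 83 lower, beside -1.01 over all tested windows and -1.21 over tested interior windows. In reads relative to each library's total outside the bait region, both PCT4961 libraries were above both TEPC1165 libraries in 38 tested near windows (24.1%), against 16.2% of all tested windows and 13.5% of interior ones. The opposite order held in 11 near windows (6.96%), against 9.25% of all tested windows and 5.72% of interior ones. The filter of at least 10 reads in at least 2 libraries also admits windows through the libraries of 1 tumor alone, which favors that order. This holds for near, interior and all tested windows. The windows also share their 4 libraries, so the shares are given as a description only.

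A count that same-numbered overlap cannot raise is that of windows with reads in both libraries of a tumor and in neither of the other tumor. In PCT4961 there were 21 such near windows, 2.48% of 848, against 1.15% of interior windows. In TEPC1165 there were 8, or 0.943%, against 0.738%. The 21 lay on 14 chromosomes and 1 of them was on chromosome 19. Their counts were low, with a median of 4.5 reads per library, and 35 of the 42 library values came from 1 fragment. Only 4 of the 21 had at least 10 reads in both PCT4961 libraries, and none of the 8 reached this in TEPC1165. The highest of those 4 was 8:10600001-10800000, with 444 and 30 reads, which was named after its values were seen. No test was made of these counts.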

How the data were processed

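Of 34 samples, the 4C libraries of TEPC1165 and PCT4961 were analysed and 30 others left out. For each library the authors deposited, per the file headers, raw read counts in consecutive 200 kb windows of mm9, with each window's number of HindIII fragments and of fragments with reads. The counts were not normalized. The sources used here do not give the aligner of the 4C reads, the bait's position, or whether PCR copies were removed. Window starts are printed counting from 1.

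Detected shares are summed detected fragments over summed fragments of a class. Ratios were computed in each library and compared with two-sided exact permutation tests over libraries. Reads were tested with edgeR 4.0.16 (R 4.3.3; quasi-likelihood, TMM, a model with tumor alone, a prior count of 2, bait region left out, at least 10 reads in at least 2 libraries, Benjamini-Hochberg adjustment over 3449 windows, threshold 0.05). DESeq2 1.42.0 was an alternative. The edgeR script was tested on simulated data. Other steps used Python 3.11.15, pandas 2.3.3 and scipy 1.17.1.

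Windows were named by rule: every near window called by edgeR, the 3 with most reads in each library, the 5 with the largest lowest number of detected fragments over libraries, and the 3 with the smallest unadjusted p in each direction. The near windows, lists and tests were chosen with earlier results of these data known. Gene order comes from RefSeq on GRCm38. No genome sequence of mm9 was used here. Alternatives changed the reach of the near stretch, the interior, the measure, the weighting, the scaling and filter of the tests, and the libraries.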

Additional observations from a re-analysis of the deposited data

Results flagged for a closer look

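The near windows of chromosome 16 were flagged for a difference between the tumors in reads. All 17 chromosomes were searched, by detected share and by reads, for near to interior ratios of opposite sign in TEPC1165 and PCT4961. This was the only one found, so it was picked from many comparisons. The log2 ratio of mean reads per near window to mean reads per interior window was -1.61 and -0.017 in TEPC1165 replicates 1 and 2 and 0.25 and 0.54 in PCT4961 replicates 1 and 2. Both TEPC1165 libraries were thus below equality and both PCT4961 libraries above it, and the means differed by 1.21. This difference was not tested. It rested largely on TEPC1165 replicate 1, without which it was 0.41, and it was 1.07 to 2.01 without any other library. The detected share of the same chromosome did not follow the tumors, with log2 ratios of -1.14, 0.27, -0.63 and -0.13 in the same order.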

How the results depend on the processing

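The lower near detected share had the same sign in 17 of 18 alternatives, with leave-one-out values from -0.43 to -0.37 (log2). Among the 17, the value against the 13 to 23 Mb stretch was -0.0051, with 2 of 4 libraries above 0. The direction thus did not hold across libraries there. By the share of windows with reads the value was -0.25, and -0.16 with same-numbered libraries merged. In fragments it reversed to 0.057 in windows without reads in the same-numbered library. The near to interior ratio of reads had the same sign in 17 of 18 alternatives. Its leave-one-out values were -0.37 to -0.24, it reached -0.78 with each chromosome weighted equally, and it reversed to 0.0092 against the 13 to 23 Mb stretch. The tumor difference in the detection ratio was -0.033 to 0.14 with 1 library left out, and reversed to -0.033 without TEPC1165 replicate 1. The tumor difference in the reads ratio was 0.21 to 0.37 with 1 library left out, 0.64 in windows without partner reads, and reversed to -0.068 with each chromosome weighted equally. The causes of these reversals were not tested. The number of chromosomes with a higher near share rose from 1 to 2 with a 5 Mb stretch, with the first megabase left out, by the share of windows with a read, and without PCT4961 replicate 2 (1 to 2 over libraries left out). The number lower was 10 to 14. Near windows called were 0 in all 12 alternatives.

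Replicate numbers are not said to mark a shared culture or day. With the replicate number as a block, the tumor difference was 0.051 for detection and 0.29 for reads (exact permutation p = 1 and p = 0.5). The edgeR test with this block called 0 near windows, with 11 at an unadjusted p under 0.05. The share of all windows at that limit was not computed for this fit, so the 11 cannot be read as an excess. Deviations of same-numbered libraries correlated at 0.678 over tested windows. Depth limits single windows: most near windows with reads had 1 detected fragment.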
